A study of Mus musculus with 6 samples.

Results

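The genes described are the replication-dependent core histone genes and the linker histone genes of the mouse, taken as every protein-coding gene whose GENCODE M21 symbol begins with Hist1h, Hist2h, Hist3h or Hist4h. There are 67 such genes, and 59 of them were among the 38887 genes of the count table. Of the 59 genes, 38 had enough counts to be tested and 21 did not. The other 8 genes, Hist1h2bh, Hist1h2bm, Hist1h3d, Hist1h3f, Hist1h3g, Hist1h3h, Hist1h3i and Hist2h2bb, are not analysed here. Since 5 of these encode H3, the H3 values rest on 7 of 12 genes.

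RNA was measured in neutrophils that had been taken from mouse bone marrow with Ly6G beads, from naive mice and from mice bearing LL2 tumors for 1 week or 3 weeks, with 2 libraries in each of the 3 groups. LL2 is a Lewis lung carcinoma line that expresses luciferase, and it was injected intravenously. The study describes C57BL/6 mice, and no genotype, sex or age is given for these libraries. The libraries were made from total RNA with a total RNA kit, with no selection for poly(A) tails stated, and the values were estimated reads per gene. The libraries held between 11994158 and 14127919 counts. Levels are given as CPM, the usual scaling of counts by library size, here the library total times its TMM factor, and 3 counts, taken as the limit of detection, corresponded to between 0.200 and 0.245 CPM. These limits cover counting error only. The neutrophil genes S100a8 (147000 to 228000 CPM) and S100a9 (62900 to 80300 CPM) were abundant in every library, whereas Ly6g itself, the antigen of the selection, was listed at 0.491 to 2.13 CPM. The replicates are labelled as mice, and whether they were isolated separately is not stated, so that p-values measure the spread between these libraries, which may in part be technical.

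Core histones H2A, H2B, H3 and H4 form the protein spool around which DNA is wound, and linker histones H1 bind where the DNA enters and leaves it. Most of these genes are transcribed in S phase, and their mRNA ends in a short stem-loop in place of a poly(A) tail, which the stem-loop binding protein SLBP recognises. Dividing precursors of the granulocyte lineage make them in quantity, and mature neutrophils no longer divide, while some histone genes also yield polyadenylated mRNA in cells that have stopped dividing.

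The stem-loops are shown because they define the family and because their letters separate H4 from the other types. The annotated transcripts of 46 of the 67 genes held a stem-loop of 16 bases, and of the 21 genes without one, 17 had fewer than 50 annotated bases after the stop codon. The sequence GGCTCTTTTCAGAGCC was present in 26 genes of H1, H2A, H2B and H3. None of the 12 H4 genes with a stem-loop had this form, and 7 of them had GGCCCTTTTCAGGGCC. The stem-loops of the genes to which the comparisons below refer most often are given 5′ to 3′ from GENCODE M21 transcripts (GRCm38), with the stem-loop in capitals.
Hist1h1c (chr13:23739507-23739532, plus strand): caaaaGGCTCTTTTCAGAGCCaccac
Hist1h2ao (chr13:21810893-21810918, plus strand): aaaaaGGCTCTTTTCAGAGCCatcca
Hist2h2aa1 (chr3:96246027-96246052, plus strand): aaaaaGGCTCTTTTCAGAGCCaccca
Hist1h2bk (chr13:22036295-22036320, plus strand): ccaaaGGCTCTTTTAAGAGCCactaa
Hist1h4c (chr13:23698084-23698109, minus strand): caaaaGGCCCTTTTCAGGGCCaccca
Hist1h4h (chr13:23531453-23531478, plus strand): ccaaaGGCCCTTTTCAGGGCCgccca
Hist1h4i (chr13:22040961-22040986, minus strand): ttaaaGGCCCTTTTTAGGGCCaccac
Hist1h4n (chr13:21831793-21831818, minus strand): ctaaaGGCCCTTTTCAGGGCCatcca
Hist4h4 (chr6:136803993-136804018, minus strand): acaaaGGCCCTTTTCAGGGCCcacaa

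The stem-loop of Hist2h2aa2 has the same letters as that of Hist2h2aa1. That of Hist1h1c begins 24 bases after the stop codon, but the annotated mRNA of Hist1h1c runs on for a further 840 bases, and that of Hist4h4 for 2445 bases. The annotated ends of Hist1h2ao, Hist1h2bk and Hist1h4n lay 31, 30 and 31 bases past their stem-loops. Of the 32 tested genes with a stem-loop, 18 had an annotated end more than 100 bases beyond it and 14 did not. Counts per gene do not show which end the reads came from.

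Promoters from RefSeq (GRCm38.p6, 250 bases before the start to 50 after it) were matched for 62 of the 67 genes. They were searched on both strands for the TATA box (TATAAA), the CCAAT box (CCAAT), the octamer (ATTTGCAT) and the H1 box (AAACACA), none of which overlapped another in the sequences shown. The CCAAT box was present in all 6 H1, 18 H2A, 16 H2B and 10 H3 promoters and in 3 of 12 H4 promoters (25%), beside 37.4% of all 32851 RefSeq promoters. The H1 box, a motif named for H1 genes, was present in 5 of 6 H1 promoters and in 7.18% of all promoters. The octamer was present in 38.9% of H2A and 37.5% of H2B promoters, in none of the 6 H1, 10 H3 and 12 H4 promoters, and in 1.74% of all promoters. Some H2A and H2B promoters overlap, as that of Hist1h2bk does with an H2A promoter. The same octamer then counts for both types, so that their shares are not independent. A promoter each of an H1, an H4 and an H2B gene shows these patterns, with the motifs in capitals.
Hist1h1c promoter (chr13:23738557-23738856, plus strand): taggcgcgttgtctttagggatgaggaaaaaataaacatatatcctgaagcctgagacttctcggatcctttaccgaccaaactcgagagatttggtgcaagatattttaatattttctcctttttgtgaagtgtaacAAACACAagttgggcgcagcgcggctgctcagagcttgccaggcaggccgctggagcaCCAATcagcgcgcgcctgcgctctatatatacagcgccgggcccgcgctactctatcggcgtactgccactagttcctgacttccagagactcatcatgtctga
Hist1h4i promoter (chr13:22041313-22041612, minus strand): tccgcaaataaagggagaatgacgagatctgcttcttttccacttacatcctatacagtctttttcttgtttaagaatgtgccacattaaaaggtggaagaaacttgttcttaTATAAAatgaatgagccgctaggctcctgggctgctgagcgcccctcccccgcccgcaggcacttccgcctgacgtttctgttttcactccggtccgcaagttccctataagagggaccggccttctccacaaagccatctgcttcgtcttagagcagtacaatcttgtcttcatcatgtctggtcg
Hist1h2bk promoter (chr13:22035571-22035870, plus strand): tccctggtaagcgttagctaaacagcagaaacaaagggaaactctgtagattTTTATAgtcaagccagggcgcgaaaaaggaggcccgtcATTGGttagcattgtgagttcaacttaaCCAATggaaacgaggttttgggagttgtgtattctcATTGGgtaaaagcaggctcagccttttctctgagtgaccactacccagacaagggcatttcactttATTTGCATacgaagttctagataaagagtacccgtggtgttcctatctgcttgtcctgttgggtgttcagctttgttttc

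In the promoter of Hist1h1c the H1 box begins 112 bases and the CCAAT box 54 bases before the start. The promoter of Hist1h4i holds neither, and its one TATA box begins 137 bases before the start. That of Hist1h2bk has its octamer 30 bases before the start.

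The histone genes lie in 4 clusters. The Hist1 cluster on chromosome 13 (21715763 to 23934851 of GRCm38) holds 54 of the 67 genes, the Hist2 cluster on chromosome 3 (96219865 to 96270132) holds 10, Hist3 on chromosome 11 holds 2 and Hist4 on chromosome 6 holds 1. All 13 H4 genes encode 1 protein of 103 residues, initiator methionine included, from 12 different coding sequences. Among the H2A genes 9 encode 1 protein, and the 6 H1 genes encode 6 different proteins.

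Because of this likeness, reads from one gene may also match another. When the annotated transcripts were cut into overlapping windows of 75 bases, the labelled read length, the median tested gene had 63.6% of its windows in no other annotated gene, from 0% to 100%. The H1 genes were the most distinct, with 71.6% to 100% unique windows among the 5 tested. Hist1h1c had 93.3%. By contrast, Hist1h2ao had 6.9% and shared 93.1% of its windows with Hist1h2ap, and both Hist2h2aa1 and Hist2h2aa2 had none. Annotated genes that overlap a histone gene, on either strand, count among the other genes here. Hist2h2aa2 shared 100% of its windows with Hist2h2aa1. Hist2h2aa1 shared 88.7% with Hist2h2aa2, and 100% with the overlapping gene Gm20633. Hist1h1e, at 71.6%, shared 22.7% with Hist1h2be, whose exons overlap its own. In 9 of the 38 tested genes an exon overlapped a gene on the opposite strand and in 5 one on the same strand, and whether counting used strand is not given in the sources used here. Values of single genes with few unique windows are therefore uncertain, since they depend on how the authors' program divided shared reads.

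**Figure D1:**
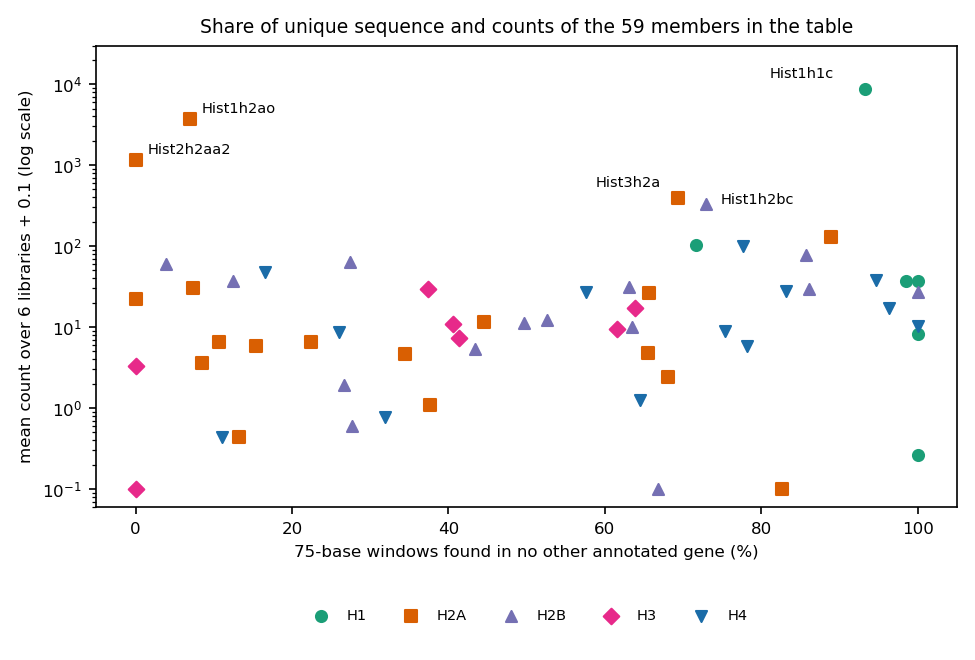
Mean count over the 6 libraries (y axis, log scale, 0.1 added) against the percentage of 75-base windows found in no other annotated gene (x axis) for the 59 histone genes in the table, with symbols by type. Of the 3 genes with the most counts, Hist1h1c had 93.3% unique windows, whereas Hist1h2ao had 6.9% and Hist2h2aa2 had 0%.

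Histone mRNA was made up mainly of a few genes. Hist1h1c, which encodes linker histone H1.2, held 56.5% of all histone counts over the 6 libraries. Hist1h2ao held 23.8% and Hist2h2aa2 held 7.38%, both encoding H2A. Per kilobase of annotated exon, the mean level was 583 CPM for Hist1h2ao, 420 CPM for Hist1h1c and 163 CPM for Hist2h2aa2. The next were Hist1h2bc, an H2B gene, at 21.4 CPM per kilobase and Hist3h2a, an H2A gene, at 14.0 CPM per kilobase. The leading H4 gene was Hist1h4i (10.3 CPM per kilobase), and no H3 gene exceeded the 2.19 CPM per kilobase of Hist2h3c2. This order holds for annotated lengths. They include 840 bases past the stem-loop for Hist1h1c, 1643 for Hist3h2a and 330 for Hist1h4i, but 31 for Hist1h2ao. Levels per kilobase of mRNA ending at the stem-loop were not computed and could be ordered otherwise.

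Among the 21 genes under the filter were 10 H2A, 4 H2B, 4 H4, 2 H3 and 1 H1 gene. No library held more than 22 counts of any of them (Hist1h4f). The count was 0 in all libraries for Hist1h2aa, Hist1h2ba and Hist2h3c1, which allows up to 0.200 to 0.245 CPM. The first pair encode testis variants of H2A and H2B, and Hist1h1t, the gene of the testis linker histone, had 1 count in 1 naive library and 0 in the others. Together the 21 genes had 32 and 42 counts in naive mice, 84 and 115 at week 1, and 34 and 35 at week 3. Both week 1 sums exceeded the other 4.

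The summed level of the histone genes was highest at week 1. It was 1050 and 1170 CPM in naive mice, 1410 and 1320 CPM at week 1, and 959 and 1080 CPM at week 3, so that both week 1 libraries lay above the rest while naive and week 3 libraries overlapped. The mean at week 1 was 1.23 times that of naive mice (1370 ± 58.3 against 1110 ± 80.3 CPM, SD, n = 2), and that at week 3 was 0.745 times that of week 1. No test is given for sums.

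Sums by type differed in pattern. H4 had 16.1 and 16.7 CPM in naive mice, 27.9 and 38.5 CPM at week 1 and 17.3 and 14.5 CPM at week 3. Its mean at week 1 was thus 2.03 times that of naive mice (33.2 ± 7.48 against 16.4 ± 0.394 CPM), and the ratio was 2.04 without Hist1h4i.

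H1 had 574 and 540 CPM in naive mice, 879 and 792 CPM at week 1 and 507 and 719 CPM at week 3. This was nearly all Hist1h1c: the other 5 H1 genes had 15.0 and 13.4, 14.9 and 17.7, and 11.3 and 10.8 CPM in the same order, and their naive and week 1 libraries overlapped.

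H2A had 405 and 554 CPM in naive mice, 431 and 418 CPM at week 1 and 400 and 284 CPM at week 3, and was the only one of the 5 types whose week 1 mean lay below that of naive mice. It rested on Hist1h2ao. Without this gene H2A had 108 and 121 CPM in naive mice, 138 and 152 CPM at week 1 and 134 and 158 CPM at week 3, with both tumor-bearing groups above both naive libraries.

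H2B had 50.5 and 48.2 CPM in naive mice, 62.4 and 68.2 CPM at week 1 and 29.8 and 55.5 CPM at week 3. The week 3 libraries differed mainly in Hist1h2bc, and without this gene H2B had 28.9 CPM in both naive libraries, 33.4 and 36.7 CPM at week 1 and 16.4 and 21.6 CPM at week 3. H3 was the lowest, with 5.69 and 6.62, 6.60 and 7.75, and 4.73 and 3.53 CPM. For both types the week 3 libraries lay below both week 1 libraries.

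**Figure D2:**
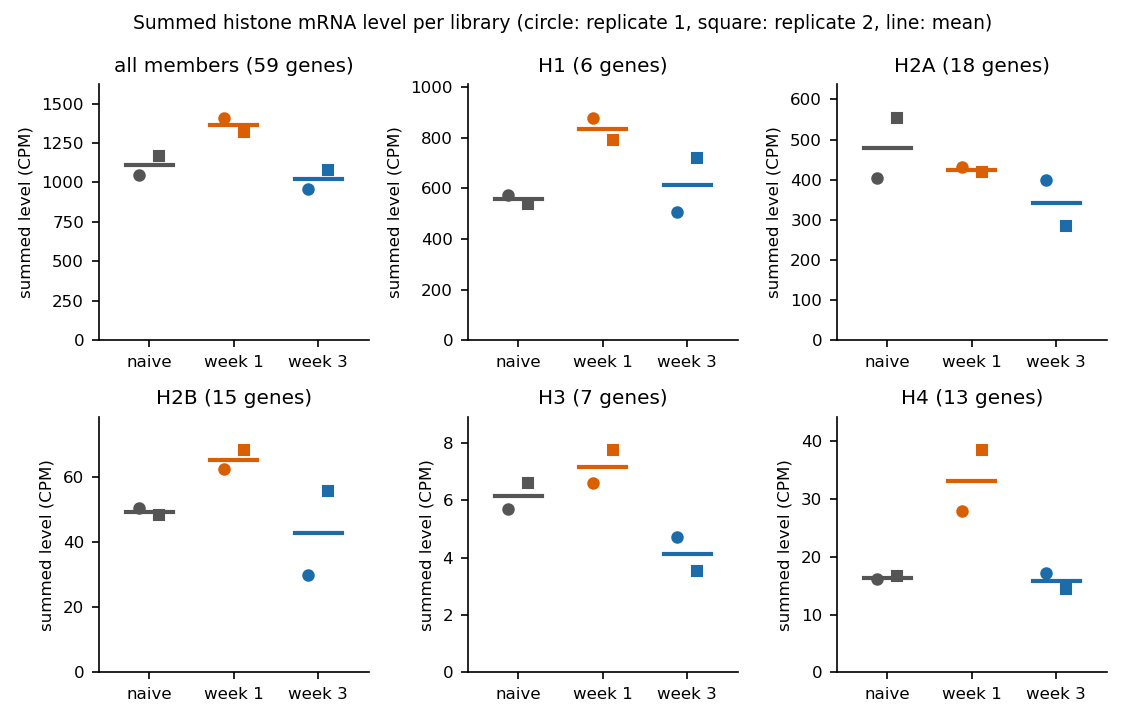
Summed level in CPM (y axis, from 0) of all 59 histone genes and of each type in the naive, week 1 and week 3 groups; circles are replicate 1, squares replicate 2 and lines the group mean. The H4 sum at week 1 (27.9 and 38.5 CPM) lay above all other libraries. For H2A, libraries within a group differed widely in naive mice (405 and 554 CPM) and at week 3 (400 and 284 CPM). For H2B they did so at week 3 (29.8 and 55.5 CPM).

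By cluster, Hist1 had 948 and 1050 CPM in naive mice, 1270 and 1180 CPM at week 1 and 834 and 928 CPM at week 3, with no overlap between groups. Hist2 had 75.5 and 81.6, 97.1 and 111, and 90.3 and 106 CPM, with naive libraries below all others, and Hist2h2aa2 made up most of it. In Hist3 the libraries of the 3 groups overlapped (27.0 to 40.0 CPM). Levels of all these sums are fractions of bulk RNA, in which fewer cells that make a histone and less of its mRNA in each cell cannot be told apart.

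To ask which single genes differed, the 38 tested genes were compared with edgeR's quasi-likelihood test, and genes with a Benjamini-Hochberg adjusted p-value under 0.05 over all 12259 tested genes were called. At week 1, 5 of 38 histone genes were higher than in naive mice (4.23% of all tested genes were) and 0 were lower (3.76% of all). At an unadjusted p under 0.05, 11 were higher and 0 lower. The log2 fold change was above 0 in 28 of the 38, with a median of 0.58, beside 0.01 over all genes tested. In 19 both week 1 libraries lay above both naive libraries, which held for 27.1% of all genes, and in 3 both lay below, which held for 26.1%. By type, 3 of 9 H4 genes, 1 of 5 H1 genes and 1 of 8 H2A genes were called, and 0 of 11 H2B and 0 of 5 H3 genes (1 and 0 at an unadjusted p under 0.05).

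Hist1h1c rose at week 1. Its level was 559 and 526 CPM in naive mice, 864 and 775 CPM at week 1 and 495 and 709 CPM at week 3. Both week 1 libraries were the highest, and the week 3 libraries lay on either side of the naive ones. The log2 fold change at week 1 was 0.59 (SE 0.150, adjusted p = 0.0287).

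The H4 genes called at week 1 were Hist1h4i, Hist1h4c and Hist4h4, the last the only gene of its cluster. Hist1h4i had 4.74 and 6.05 CPM in naive mice, 9.93 and 11.5 CPM at week 1 and 6.97 and 5.61 CPM at week 3 (week 1 log2 fold change 0.99, SE 0.223, adjusted p = 0.0176). Hist1h4c had 1.19 and 1.23, 3.47 and 3.43, and 1.39 and 1.54 CPM (1.51, SE 0.386, adjusted p = 0.0312). In both genes the week 1 libraries lay above all others, and the libraries within a group were close together. Hist4h4 had 1.50 and 1.96, 3.47 and 5.66, and 2.17 and 2.00 CPM, with a log2 fold change of 1.39 (SE 0.372, adjusted p = 0.0375) at week 1. These 3 genes had 77.6%, 83.1% and 94.6% unique windows, so that most of their annotated sequence was their own. These shares include the 330, 454 and 2445 annotated bases past their stem-loops, and the shares within mRNA ending at the stem-loop were not computed.

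The fifth gene called was Hist2h2aa1, which had 8 and 9 counts in naive mice, 62 and 38 at week 1 and 5 and 9 at week 3. Its log2 fold change at week 1 was 2.34 (SE 0.482, adjusted p = 0.0119). Its neighbour Hist2h2aa2, which encodes the same protein and has no window of its own, had 867 and 931, 1298 and 1320, and 1116 and 1319 counts (0.35, SE 0.129, adjusted p = 0.112 at week 1). When the counts of the pair were added into 1 row, which was chosen after seeing the data, the week 1 log2 fold change was 0.39 (SE 0.128, adjusted p = 0.0777) and the call was lost. The pair of Hist1h2ap and Hist1h2ao was similar. Hist1h2ap alone had 15 and 9 counts in naive mice and 54 and 53 at week 1 (1.96, SE 0.570, adjusted p = 0.0529, the value just outside the threshold), but added to the much more abundant Hist1h2ao the log2 fold change was -0.37 (SE 0.259, adjusted p = 0.426).

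The calls at week 1 lay near the threshold, and no more than 1 was kept when any naive or week 1 library was left out, which leaves 1 library in that group. Without naive replicate 1 or week 1 replicate 1 there were 0. Without naive replicate 2 only Hist1h4i was called, and without week 1 replicate 2 only Hist2h2aa1. The largest adjusted p-values so obtained were 0.187 for Hist1h1c, 0.172 for both Hist1h4i and Hist1h4c, 0.293 for Hist4h4 and 0.131 for Hist2h2aa1. With DESeq2 the 2 genes called were Hist1h1c and Hist2h2aa1.

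**Figure D3:**
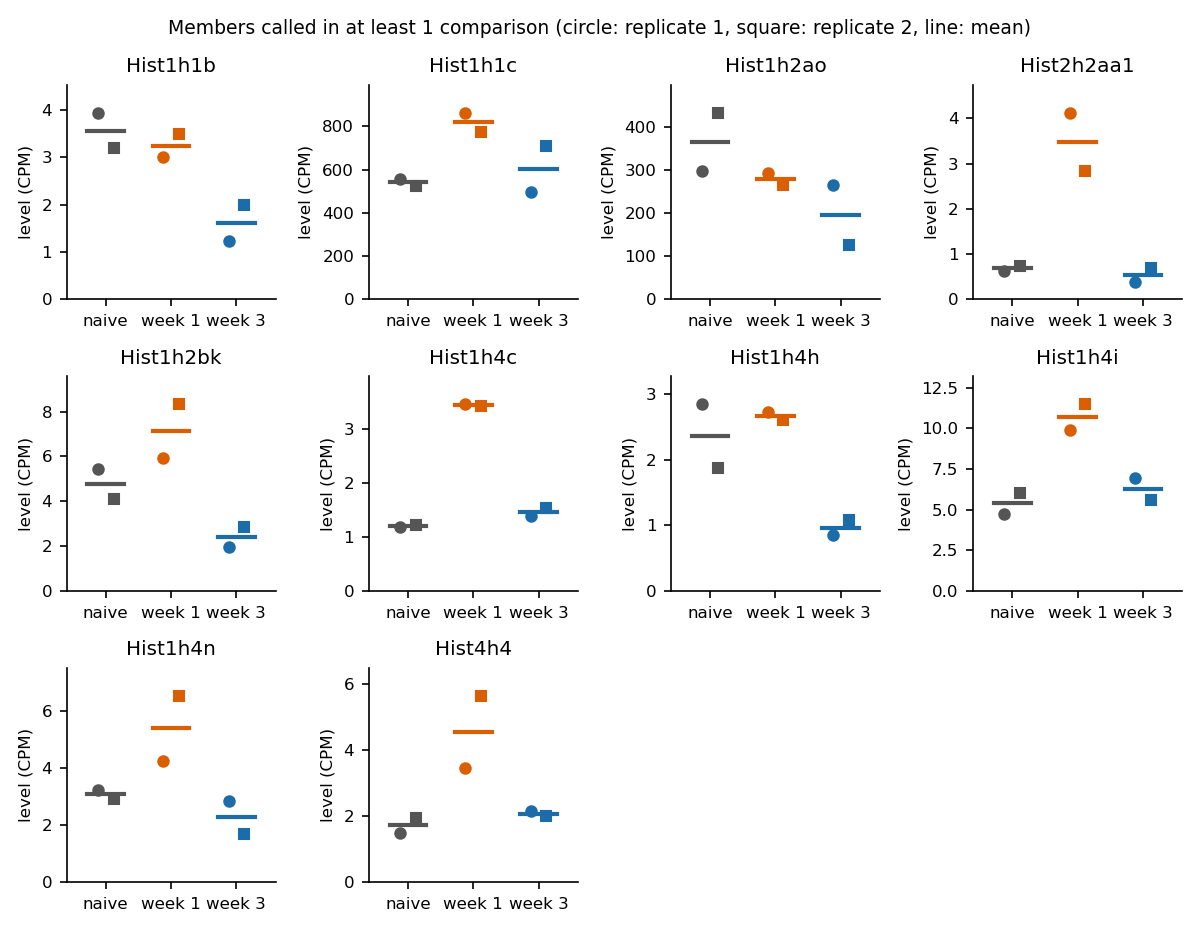
Level in CPM (y axes, from 0) of the 10 histone genes called in at least 1 comparison, in the naive, week 1 and week 3 groups; circles are replicate 1, squares replicate 2 and lines the group mean. Hist1h4c had 3.47 and 3.43 CPM at week 1, above its other 4 libraries, whereas Hist1h2ao ranged from 125 CPM in a week 3 library to 433 CPM in a naive library.

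Few histone genes differed between week 3 and naive mice. Of the 38 tested, 0 were called higher (12.0% of all tested genes were) and 3 lower (9.42% of all), the latter share of the members, 7.89%, being close to that of all genes. At an unadjusted p under 0.05, 2 were higher and 7 lower. The median log2 fold change was -0.35, beside 0.03 over all genes. Both week 3 libraries lay below both naive libraries in 15 genes (27.5% of all genes) and above in 3 (32.1% of all). All 5 tested H3 genes had a log2 fold change below 0 (median -0.55, 0 called), as had 8 of 11 H2B genes (median -0.73, 1 called), while the median was 0.12 over the 9 H4 genes and 0.18 over the 8 H2A genes.

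The genes that fell at week 3 were Hist1h1b, Hist1h2bk and Hist1h2ao. Hist1h1b, the gene of linker histone H1.5, had 3.95 and 3.19 CPM in naive mice, 3.00 and 3.50 CPM at week 1 and 1.24 and 2.00 CPM at week 3. Both week 3 libraries were the lowest, and the log2 fold change was -1.14 (SE 0.371, adjusted p = 0.0444). Hist1h1c, the leading linker histone gene, was not called in this comparison, and the difference between both genes was not tested. The call of Hist1h1b was lost when any library but week 3 replicate 2 was left out, with the smallest change without week 3 replicate 1 (log2 fold change -0.83, adjusted p = 0.244).

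Hist1h2bk, an H2B gene, had 5.45 and 4.09 CPM in naive mice, 5.93 and 8.34 CPM at week 1 and 1.94 and 2.84 CPM at week 3 (log2 fold change -1.00 against naive mice, SE 0.321, adjusted p = 0.0422). The level was highest at week 1 and lowest at week 3, with no overlap of libraries between groups. The call was lost without naive replicate 1 (-0.80, adjusted p = 0.214), naive replicate 2 (-1.18, adjusted p = 0.0533) or week 3 replicate 1 (-0.74, adjusted p = 0.214).

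Hist1h2ao had 298 and 433 CPM in naive mice, 293 and 265 CPM at week 1 and 266 and 125 CPM at week 3, with a log2 fold change of -0.90 (SE 0.260, adjusted p = 0.0252). Added to Hist1h2ap the value was -0.89 (adjusted p = 0.0272). An exon of Gm19658 overlaps Hist1h2ao on the opposite strand. The libraries of a group differed widely. Without week 3 replicate 2, the lowest library, the log2 fold change was -0.45 (adjusted p = 0.127), and without naive replicate 2, the highest, it was -0.60 (adjusted p = 0.228). Erythroid genes were also lowest in week 3 replicate 2, where the 10 genes of that list summed to 573 CPM, beside 1200 to 1510 CPM in the other 5 libraries. Among those 5 the order was not shared. Naive replicate 2, the highest in Hist1h2ao, had the lowest erythroid sum (1200 CPM), and week 1 replicate 2, the lowest in Hist1h2ao, had the highest (1510 CPM). The part of erythroid genes in the result was not tested. In week 3 replicate 2 Hist1h2bc was the highest of all libraries, at 33.9 CPM, beside 13.5 CPM in the other week 3 library.

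Just outside the threshold were Hist1h4h, with a log2 fold change of -1.29 (SE 0.435, adjusted p = 0.0508), and Hist2h2aa2, with 0.38 (SE 0.129, adjusted p = 0.0542). Adding up near copies, chosen after seeing the data, gained a call for the row of Hist1h2bq and Hist1h2br (log2 fold change -0.95, SE 0.303, adjusted p = 0.0403). Neither gene was called alone (adjusted p = 0.216 and 0.0562). DESeq2 called 0 of the histone genes in either direction at week 3. Without naive replicate 2 the only gene called lower was Hist3h2ba.

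When week 3 was compared directly with week 1, 8 of 38 histone genes were lower at week 3 (9.57% of all tested genes were) and 0 higher (12.9% of all). At an unadjusted p under 0.05, 14 were lower and 0 higher. The log2 fold change lay below 0 in 34 of the 38, with a median of -0.91, beside -0.02 over all genes. Both week 3 libraries lay below both week 1 libraries in 24 genes (32.3% of all genes) and above in 2 (31.6% of all). The 3 comparisons share libraries in pairs, so that a high value at week 1 enters both comparisons with that group.

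The H4 genes carried most of these calls, with 5 of 9 lower at week 3 and all 9 below 0 (median -1.24). Hist1h4h had 2.85 and 1.88 CPM in naive mice, 2.73 and 2.61 CPM at week 1 and 0.852 and 1.08 CPM at week 3 (log2 fold change -1.46, SE 0.427, adjusted p = 0.0257). Unlike Hist1h4c, Hist1h4i and Hist4h4, its naive and week 1 libraries overlapped. Hist1h4n had 3.24 and 2.94, 4.27 and 6.55, and 2.87 and 1.69 CPM, with a log2 fold change of -1.24 (SE 0.351, adjusted p = 0.0223). It has 16.6% unique windows, and added to its near copy Hist1h4m the value was -1.26 (adjusted p = 0.0211). The log2 fold changes of Hist1h4i, Hist1h4c and Hist4h4 were -0.77 (adjusted p = 0.0229), -1.23 (adjusted p = 0.0318) and -1.12 (adjusted p = 0.0408). Without week 1 replicate 2, the library with the higher H4 sum, or without week 3 replicate 2, 0 of the 9 H4 genes were called, and without week 3 replicate 1 the 2 called were Hist1h4i and Hist1h4n. Without week 1 replicate 2 the log2 fold change was -0.76 (adjusted p = 0.32) for Hist4h4 and -0.93 (adjusted p = 0.189) for Hist1h4n.

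Outside H4, the calls were Hist1h1c (log2 fold change -0.45, SE 0.149, adjusted p = 0.0477), Hist1h2bk (-1.57, SE 0.311, adjusted p = 0.00283) and Hist2h2aa1 (-2.67, SE 0.495, adjusted p = 0.00183). Hist1h2bk was called under each of the 15 other settings tried, with log2 fold changes from -1.86 to -1.31. However, it has 27.4% unique windows and shares 64.4% of its windows with Hist1h2bq and with Hist1h2br. None of these settings changes how shared reads were divided. Hist2h2aa1 was also called under each setting, but added to Hist2h2aa2 the value was -0.02 (SE 0.127, adjusted p = 0.923). The call of Hist1h1c was lost when any library but week 3 replicate 2 was left out, and without week 3 replicate 1 the value was -0.20 (adjusted p = 0.404). Without week 1 replicate 2 the only 2 genes called of all 38 were Hist1h2bk and Hist2h2aa1, and DESeq2 called these and Hist1h1c.

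**Figure D4:**
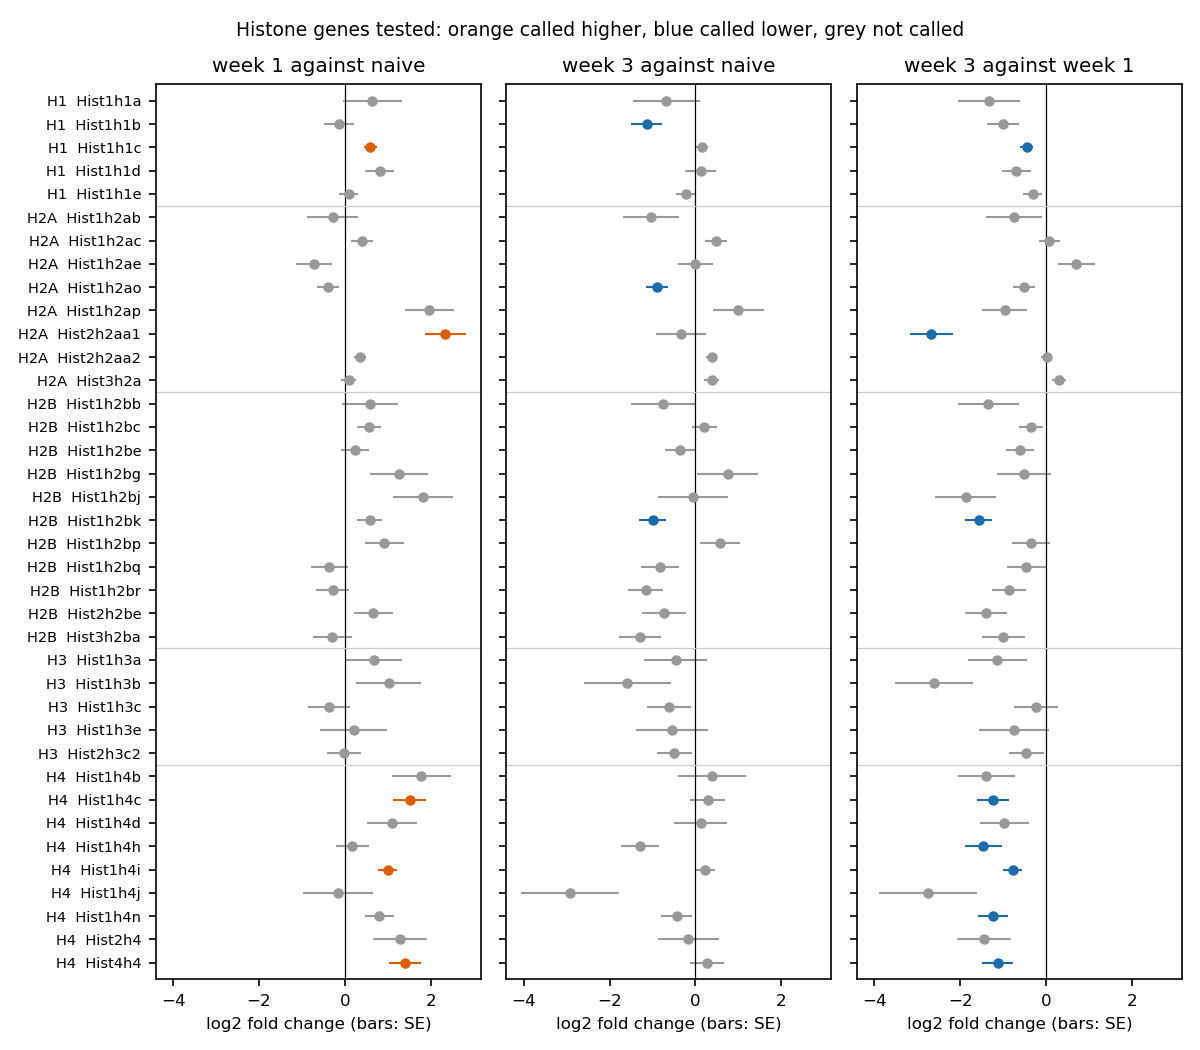
Log2 fold change (x axis, bars SE) of the 38 tested histone genes, grouped by type, in the 3 comparisons; orange marks genes called higher, blue genes called lower and grey genes not called. Most points lie right of 0 at week 1 against naive (28 of 38) and left of 0 at week 3 against week 1 (34 of 38).

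Of the remaining named genes, Hist1h1e, an H1 gene with 7.98 and 7.85 CPM in naive mice, 7.47 and 9.38 CPM at week 1 and 7.75 and 5.84 CPM at week 3, was not called in any comparison. Its exons overlap those of Hist1h2be, an H2B gene whose libraries overlapped between all groups (at most 8.12 CPM). Hist1h2bc had 21.7 and 19.3 CPM in naive mice and 29.0 and 31.4 CPM at week 1, with no overlap but no call (log2 fold change 0.56, SE 0.288, adjusted p = 0.267). Hist3h2a ranged from 22.8 to 39.3 CPM, with the lowest value in a naive and the highest in a week 3 library. The most abundant H3 genes were Hist2h3c2 (1.31 to 2.76 CPM), Hist1h3c (0.768 to 1.88 CPM) and Hist1h3e (0.158 to 1.55 CPM), and none of them was called. Hist1h4j had 1 count in each week 3 library, which is under the limit of detection.

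By the annotated 3′ end, the genes lower at week 3 than at week 1 numbered 4 of the 18 genes with an end more than 100 bases past the stem-loop (median log2 fold change -0.65) and 4 of the 14 that end near it (median -1.29). At week 1 the numbers higher were 4 of 18 (median 0.49) and 1 of 14 (median 0.63), and at week 3 against naive mice 0 of 18 (median 0.12) and 2 of 14 (median -0.54) were lower. Over all tested genes the shares were 9.57% lower at week 3 against week 1 (median -0.02), 4.23% higher at week 1 (median 0.01) and 9.42% lower at week 3 against naive mice (median 0.03). The differences between the classes were not tested.

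Other genes of histone supply were taken from written lists, whose counts are to be read against the shares of all tested genes. These were 4.23% higher and 3.76% lower at week 1, 12.0% and 9.42% at week 3 against naive mice, and 12.9% and 9.57% at week 3 against week 1. The replacement variants are not made in S phase alone and, apart from the linker variants among them, replace core histones in chromatin. Among the 9 tested, 1 was higher and 0 lower at week 1, and 3 were higher and 3 lower at week 3 against naive mice (33.3% each). H3f3a, a gene of variant H3.3, rose from 1400 and 1500 CPM in naive mice to 2050 and 2190 CPM at week 3 (log2 fold change 0.55, adjusted p = 0.00433), and the linker variant H1f0 rose from 2.77 and 3.60 CPM to 7.59 and 5.99 CPM (1.09, adjusted p = 0.0134). H2afy, the gene of macroH2A1, rose as well (0.85, adjusted p = 3.29e-04). The call of H1f0 was lost without naive replicate 1 (adjusted p = 0.115) or week 3 replicate 1 (adjusted p = 0.0858). The other H3.3 gene, H3f3b, had 1830 to 2400 CPM and was not called, and the linker variant gene H1fx was listed at 0 in all libraries.

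In the opposite direction, H2afx, the variant phosphorylated at DNA breaks, had 53.0 and 50.6 CPM in naive mice, 60.2 and 62.9 CPM at week 1 and 29.2 and 28.5 CPM at week 3, and fell against both (log2 fold change -0.84, adjusted p = 3.40e-04, and -1.09, adjusted p = 4.25e-05). H2afz fell at week 3 against naive mice (-0.61, adjusted p = 0.0221). Without week 3 replicate 1 the value for H2afz was -0.33 (adjusted p = 0.192), and its call was also lost without either naive library (adjusted p 0.104 and 0.0785). At week 1 the variant called was H2afj (0.55, adjusted p = 0.0287), and the call was lost when any naive or week 1 library was left out (adjusted p 0.0512 to 0.232).

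Of 15 tested genes of histone mRNA transcription, 3′ processing and decay, 0 were higher and 1 lower at week 1, and 2 were higher and 1 lower at week 3 both against naive mice and against week 1, which at 13.3% and 6.67% is near the shares of all genes. Slbp, which encodes the stem-loop binding protein, had 77.9 and 90.0 CPM in naive mice, 109 and 106 CPM at week 1 and 82.1 and 80.9 CPM at week 3. It was lower at week 3 than at week 1 (log2 fold change -0.40, adjusted p = 0.0274), a call that was lost when any week 1 or week 3 library was left out (adjusted p 0.0884 to 0.119). Npat, an activator of histone genes in S phase, was not called (0.818 to 2.98 CPM). Xrn1, a 5′ to 3′ exonuclease, fell at week 1 (-1.14, adjusted p = 0.00767), a call lost without naive replicate 1 (adjusted p = 0.103) or week 1 replicate 1 (adjusted p = 0.0695). Ncbp1 of the cap-binding complex rose at week 3 (0.85, adjusted p = 0.00112). Of 20 histone chaperone genes 0 were called at week 1, and 2 were lower at week 3 against naive mice (10%, near the share of all genes), among them Ssrp1 (-0.71, adjusted p = 0.00154). Against week 1, 3 were lower and 1 higher at week 3 (15% and 5%, beside 9.57% and 12.9% of all genes). Among the lower was Asf1b, the chaperone of H3 and H4 in dividing cells (-0.84, adjusted p = 0.00623). Without week 3 replicate 1 its call was lost (-0.61).

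Genes of DNA replication, with which histone mRNA is made in S phase, summed to 474 and 420 CPM in naive mice, 460 and 456 CPM at week 1 and 331 and 337 CPM at week 3. Where the week 1 libraries lay against the naive ones depended on Lig1, the gene of DNA ligase I and the one with most counts in the list. Lig1 had 105 and 87.4 CPM in naive mice and 71.2 and 69.6 CPM at week 1 (log2 fold change -0.45, adjusted p = 0.0484). That call was lost without naive replicate 1 (-0.31, adjusted p = 0.307), week 1 replicate 1 (-0.47, adjusted p = 0.182) or week 1 replicate 2 (-0.43, adjusted p = 0.22). Without Lig1, which was left out after seeing the data, the other 25 genes summed to 369 and 333 CPM in naive mice. They summed to 389 and 386 CPM at week 1, above all others, and to 274 and 286 CPM at week 3. Since Lig1 was lower at week 1, leaving it out could only raise week 1 against naive mice. No conclusion is drawn from that order, which the list as written did not show. Of 26 tested, 2 were higher and 1 lower at week 1 (median log2 fold change 0.07), whereas 8 were lower at week 3 against naive mice and 10 against week 1 (30.8% and 38.5%, medians -0.41 and -0.52), with 0 higher in either. The higher genes at week 1 were Tyms, for thymidylate synthesis (0.74, adjusted p = 0.0188), and Cdc45 of the replicative helicase (0.60, adjusted p = 0.0246). Both week 1 calls were lost when any naive or week 1 library was left out (adjusted p 0.0554 to 0.153). Cdc45 was lower at week 3 than at week 1 (-0.89, adjusted p = 7.76e-04). Pold1, the catalytic subunit of DNA polymerase delta, fell at week 3 against naive mice (-1.16, adjusted p = 0.00136), as did Mcm2 (-0.67, adjusted p = 0.0173), a call lost without any naive or week 3 library (adjusted p 0.0567 to 0.0728). Pcna, the sliding clamp, was not called (20.1 to 28.3 CPM).

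Genes of mitosis summed to 951 and 914, 810 and 931, and 526 and 568 CPM. Without Top2a, left out in the same way, the naive (775 and 764 CPM) and week 1 libraries (711 and 813 CPM) still overlapped. Of 17 tested, 1 was higher and 2 lower at week 1, 11 were lower at week 3 against naive mice and 12 against week 1 (64.7% and 70.6%), and 0 were higher in these. Top2a (-1.33, adjusted p = 1.57e-05) and the proliferation marker Mki67 (-0.73, adjusted p = 0.00388) fell at week 3. At week 3 the replication and mitosis sums lay below both naive libraries, and the H4 sum overlapped them. The H4 overlap depended on Hist1h4i, since without it H4 had 10.3 and 8.91 CPM at week 3, below 11.4 and 10.6 CPM in naive mice. Of the other types, the H2A and H3 sums lay below both naive libraries, and the H1 and H2B sums overlapped them. All but H3 likewise depended on a single gene. Without Hist1h2ao the H2A sum lay above both naive libraries (134 and 158 against 108 and 121 CPM). Without Hist1h1c the H1 sum lay below them (11.3 and 10.8 against 15.0 and 13.4 CPM). So did H2B without Hist1h2bc (16.4 and 21.6 against 28.9 CPM in both). H3 stayed below them without Hist2h3c2.

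Markers of other cells also differed between the groups. The list of eosinophil, basophil and mast cell genes summed to 38.0 and 41.9 CPM in naive mice, 82.4 and 92.4 CPM at week 1 and 21.6 and 30.7 CPM at week 3, and like the H4 sum it was highest in both week 1 libraries. Of its 6 tested genes 4 were higher at week 1 (66.7%, beside 4.23% of all genes), and 4 were lower and 1 higher at week 3 against week 1. The basophil protease gene Prss34 had 15.2 and 14.3, 39.8 and 44.4, and 2.09 and 5.61 CPM (log2 fold change 1.51, adjusted p = 0.00285, at week 1, and 0.0565 without naive replicate 1). Of the defining markers, Ms4a2 was at 0 in both naive libraries and in week 3 replicate 2, and Epx in the latter. T and NK cell genes summed to 17.2 and 14.3 CPM in naive mice, 18.7 and 31.4 CPM at week 1 and 6.43 and 6.99 CPM at week 3 (1 of 4 tested higher at week 1, 2 lower at week 3 against week 1). The gene higher at week 1 was Lck, with 1.19 and 1.06 CPM in naive mice and 2.40 and 9.53 CPM at week 1. Its rise, like that of the sum, lay mainly in week 1 replicate 2.

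The 9 tested B lineage genes were all lower at week 3 in both comparisons (9.42% and 9.57% of all genes were), with sums of 43.0 to 55.6 CPM in naive mice and at week 1 and of 12.1 and 13.7 CPM at week 3. Of the 7 genes of early granule stages, 5 were higher and 2 lower at week 3 in both comparisons, and 0 were called at week 1. Of 11 late-stage neutrophil genes 2 were higher and 3 lower at week 3 against naive mice. Erythroid genes had 0 calls at week 1 and 0 higher and 1 lower of 10 at week 3, monocyte genes 0 higher and 1 lower of 8 and then 1 higher and 2 lower, megakaryocyte genes 1 and 3 lower of 5 with 0 higher, and stem and progenitor genes 0 of 4 in both. The part of any of these cells in the histone levels was not tested.

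**Figure D5:**
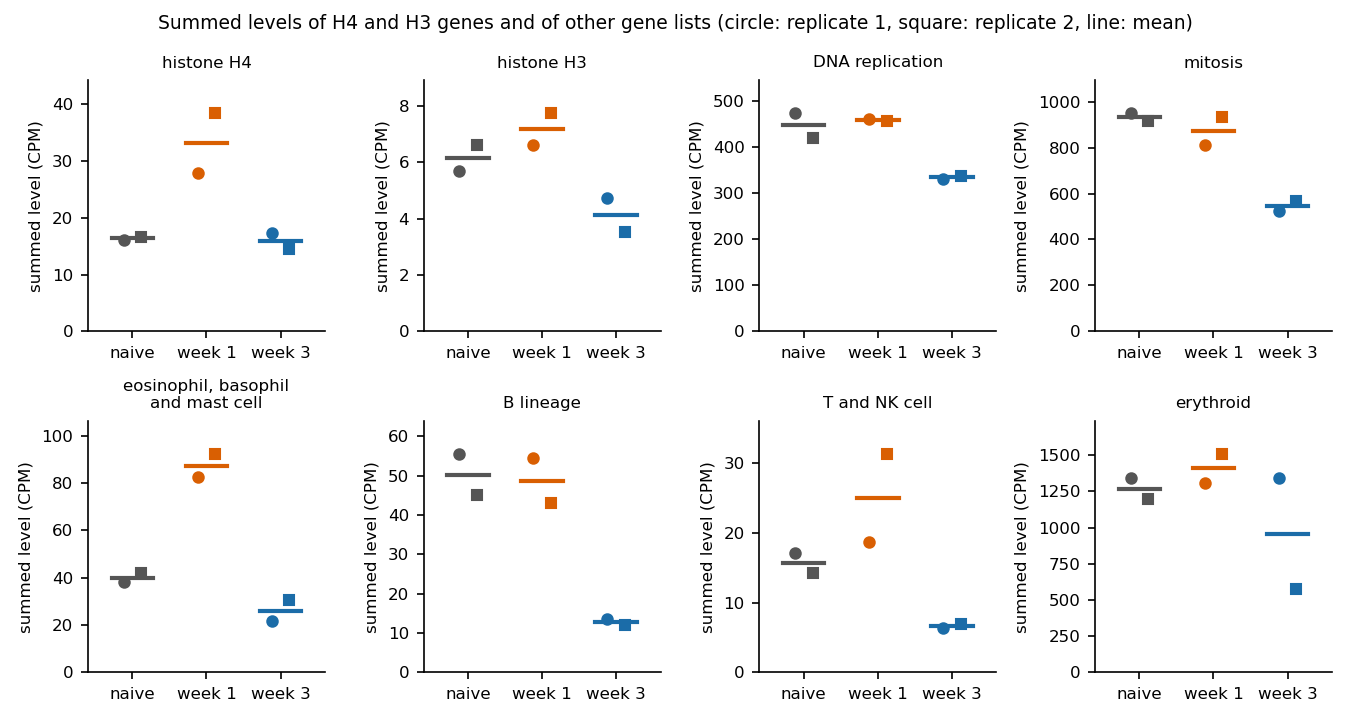
Summed level in CPM (y axes, from 0) of H4 and H3 genes and of 6 other gene lists in the naive, week 1 and week 3 groups; circles are replicate 1, squares replicate 2 and lines the group mean. At week 1 the H4 sum (27.9 and 38.5 CPM) and the sum of eosinophil, basophil and mast cell genes (82.4 and 92.4 CPM) were above all other libraries. The replication sum at week 1 (460 and 456 CPM) lay between the naive libraries with Lig1 included, as plotted. It lay above them without Lig1 (389 and 386 against 369 and 333 CPM), a gene lower at week 1 that was left out after seeing the data.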

How the data were processed

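RNA of bone marrow Ly6G+ cells from naive, week 1 and week 3 LL2 mice was sequenced in 2 libraries each. The authors deposited estimated counts per gene from RSEM (version 1.2.31 in the submitters' processing notes, which also name Bowtie2, DESeq2 and mm10) as whole numbers, unscaled. The labels give reads of 75 bases, and the methods shorter ones. The notes do not say how reads shared by similar genes were divided, beyond naming RSEM, which estimates it.

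Of 38887 identifiers 37570 matched GENCODE M21 (GRCm38). After filterByExpr 12259 genes were tested with the quasi-likelihood test of edgeR 4.0.16 (R 4.3.3), with TMM factors, 1 model of all 6 libraries and group as the factor, and Benjamini-Hochberg adjustment at 0.05. CPM used library totals times TMM factors (0.9134 to 1.072), and errors with ± are SD (n = 2). Replicates differed beyond counting noise (chi-square per degree of freedom 8.84 to 11.8). Genes sharing 80% of 75-base windows were called near copies. 0 columns of the table were left unused.

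The scripts were tested on simulated data. Alternatives were DESeq2 1.42.0, other scalings and filters, sums without the leading gene of each type, protein-coding genes only, the groups compared only, a replicate block, a GC and length offset, and each library left out. Adding up near copies, leaving Lig1 out of the replication sum and leaving Top2a out of the mitosis sum were chosen after seeing the data. The genes and lists were chosen with earlier results of these data known. Named genes were the 3 most abundant of each type and all genes called, with up to 3 called genes and some set genes of each list. Hist1h2ap, Hist1h4f, Hist1h4j, Hist3h2ba, genes without counts, S100a9, Ly6g, Epx and Ms4a2 were named after their values were seen.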

Additional observations from a re-analysis of the deposited data

Results flagged for a closer look

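The change from naive mice at week 3 differed from that at week 1 for 8 histone genes, by edgeR's quasi-likelihood test of the difference itself, which equals the comparison of week 3 with week 1 because the naive libraries are shared. The week 3 effect minus the week 1 effect was -0.77 for Hist1h4i, -1.12 for Hist4h4, -1.23 for Hist1h4c, -1.24 for Hist1h4n and -1.46 for Hist1h4h on the log2 scale, all H4 genes. It was -1.57 for the H2B gene Hist1h2bk, -0.45 for the linker histone gene Hist1h1c and -2.67 for the H2A gene Hist2h2aa1. Hist2h2aa1 and Hist2h2aa2 have no 75-base window of their own, and with their counts added up the value was -0.02. Groups of 2 libraries are too small to look for single libraries that stand apart.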

How the results depend on the processing

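The 16 calls of single histone genes were recomputed under 15 other settings each. In the 240 values so obtained, the direction was kept in all, and 65 no longer passed the threshold. Counts of genes higher at week 1 moved from 5 to 2 with DESeq2 and to 3 with the offset for GC content and length, and ranged from 0 to 7 when a library was left out. For genes lower at week 1 the count was 0, and 1 without the low-count filter (Hist1h2ao). At week 3 against naive mice the count of lower genes moved from 3 to 0 with DESeq2, to 5 with library size only, to 7 without the low-count filter, to 5 with protein-coding genes only, to 1 with the groups compared only and to 5 with the offset, and ranged from 1 to 2 with a library left out. The count of higher genes moved from 0 to 1 with protein-coding genes only (Hist2h2aa2), and ranged from 0 to 2 with a library left out (Hist1h2bc and Hist2h2aa2 without week 3 replicate 1, Hist1h2ap without week 3 replicate 2). At week 3 against week 1 the count of lower genes moved from 8 to 3 with DESeq2, to 12 with library size only and to 13 without the filter, and ranged from 2 to 7 with a library left out. The cause of these changes was not tested. Library size only also lowered the median of all genes by 0.15 at week 3 against naive mice and by 0.20 against week 1 on the log2 scale.

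Nothing in the labels ties libraries of the same replicate number to each other across groups, and same-numbered libraries did not deviate together (r between 0.0101 and 0.0379 across genes). With the replicate block 6 genes were higher at week 1, 1 higher (Hist2h2aa2) and 4 lower at week 3 against naive mice, and 8 lower at week 3 against week 1.

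Without the gene with most counts of each type, the log2 ratio of sums over all types moved from -0.12 to 0.13 at week 3 against naive mice and from -0.42 to -0.25 against week 1. It moved to 0.20 for H1, 0.34 for H2A and 0.28 for H2B at week 1, and to -0.36 for H1 and 0.36 for H2A at week 3 against naive mice. With library size only, the ratio over all types at week 3 against week 1 was -0.63. Of the 38 tested histone genes 27 had under 100 counts in every library, which limits what 2 libraries a group can show.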
